A study of Mus musculus with 14 samples.

Results

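The comparison was between 2 related lipid mediators, prostaglandin E1 (PGE1) and prostaglandin E2 (PGE2), given at the same dose of 20 µM for the same 6 h to mouse leukemic stem cells. Its members were the 3 libraries whose titles name PGE1 and the 2 whose titles name PGE2, 5 of the 14 libraries in the series, and every gene that averaged 1 FPKM or more across them, which was 11182 of 24463 genes. FPKM is the number of fragments on a gene scaled to the length of its gene model and to the library's total, so levels of different genes are per length. The means of the genes just inside and just outside that minimum were 1.0005 and 0.9989 FPKM. This was the 1 pair of prostaglandins compared, so its p-values were adjusted over genes alone.

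All 5 libraries came from control cells whose genotype field reads wild type. Marrow cells depleted of mature lineages had been infected with a viral vector for p210 BCR-ABL, the fused kinase behind chronic myeloid leukemia, and grown in IMDM with serum, stem cell factor and thrombopoietin. The sort kept cells with c-Kit, Sca1 and the vector's GFP and without lineage markers. The 3 vehicle (DMSO) libraries from the same kind of cells gave the level without a prostaglandin and shared the estimate of spread. The genotype field of DMSO replicate 1 names Tcf1 and Lef1 deficiency against its title, and the title was followed. Tcf7, which encodes Tcf1, read 1.03, 0.85 and 1.53 FPKM in DMSO replicates 1, 2 and 3. Levels this low do not tell which label is right. The model limits what a group stands for: the kinase was delivered by a virus, and the strain, age and sex of the marrow donors are not known from the labels used here. The labels do not tie replicates to separate mice or cultures, so the p-values measure the spread between these libraries, which may be technical.

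The sort was checked on RNA. Kit averaged 42.2 ± 6.55 against 23 ± 0.829 FPKM after PGE1 and PGE2 and Ly6a, which encodes Sca1, 13 ± 2.36 against 12.7 ± 0.613 (here and below mean ± SD, n = 3 PGE1 and n = 2 PGE2 libraries). Cd3e, of mature T cells, and Ly6g, of mature neutrophils, averaged under 1 FPKM in each group, and 12 of 16 T and NK cell markers were below the minimum. The late neutrophil granule gene Ngp was abundant at 148 ± 27.5 against 338 ± 17 FPKM. In the late granule list, which includes Ly6g and other surface markers, 11 of 14 genes were above the minimum. Itgam, whose product CD11b is a common lineage marker, was present at 59.8 ± 5.69 against 62.7 ± 0.446 FPKM. Reads in genes ran from 11.31 M to 13.4 M (M, mega) per library over the 8 treated libraries. PGE1 replicate 2 stood apart from its group: among genes with 1000 to 10000 reads its variance against PGE1 replicates 1 and 3 was 45.7 and 48.1 times counting noise, against 12.3 between replicates 1 and 3 and 1.98 between the 2 PGE2 libraries. Metallothionein and heat shock RNAs were high there: Mt2 read 140.4, 617 and 171 FPKM in PGE1 replicates 1, 2 and 3 and Hspa1b 11.9, 65.1 and 8.69. DMSO replicate 1 stood apart among the vehicle libraries, at 15.1 and 17.4 times counting noise against replicates 2 and 3. The variance between DMSO replicates 2 and 3 was 1.86 times counting noise. DMSO replicate 1 is part of every vehicle mean given here. The libraries also differed in sex-linked RNA. Xist, expressed from the inactive X chromosome of female cells, read 8.14, 3.54 and 6.19 FPKM after PGE1 and 14.6 and 14.9 after PGE2 and was lower after PGE1 (limma adjusted p = 0.0026). The Y-linked Eif2s3y (22.2 ± 3.33 against 13.7 ± 0.133), Uty (3.28 ± 0.287 against 1.94 ± 0.121) and Kdm5d (3.18 ± 0.356 against 1.96 ± 0.0902) were higher after PGE1, and Ddx3y did not pass (9.06 ± 0.509 against 7.53 ± 0.763). The adjusted p of Kdm5d without PGE2 replicate 1 and replicate 2 was 0.079 and 0.053. Against vehicle, 4 of these 5 sex-linked genes were higher and 1 lower after PGE1, and 0 passed after PGE2. Of all genes tested, 48.7% and 5.01% passed in those comparisons. The part of the donors' sex in the results below, those against vehicle included, was not tested.

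As background, prostaglandins of the E series act through the cell surface receptors EP1 to EP4. EP2 and EP4 couple to the G protein Gs, which raises cyclic AMP (cAMP), EP3 couples mainly to Gi, which lowers it, and EP1 raises calcium. PGE1 also activates the prostacyclin receptor IP, another Gs-coupled receptor. The 2 molecules share their ring and differ in a cis double bond that PGE2 carries, and PGE1 lacks, in the chain that ends in the carboxylic acid. cAMP activates protein kinase A, which phosphorylates CREB-family factors bound at the cAMP response element, and phosphodiesterases end the signal. In blood stem cells the pathway is known for effects on survival, proliferation and homing.

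Promoters of 3 genes that differed between the compounds are shown, because each holds the cAMP response element in full (TGACGTCA) or its 5-base core (TGACG) in the 250 bases before the RefSeq start (GRCm38.p6). Gzmc, a granzyme gene high after PGE1, held the full element on the printed strand of chr14:56234658-56234907 (minus strand), 57 bases before the start. Fosb, an AP-1 gene low after PGE1, held the core on the printed strand of chr7:19310046-19310295 (minus strand), 60 bases before the start. Nr4a1, an orphan nuclear receptor gene and textbook cAMP target, held 4 cores on the opposite strand of chr15:101266596-101266845 (plus strand), 233, 213, 69 and 40 bases before the start, which read CGTCA on the printed one. Capitals mark the matches.

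Gzmc: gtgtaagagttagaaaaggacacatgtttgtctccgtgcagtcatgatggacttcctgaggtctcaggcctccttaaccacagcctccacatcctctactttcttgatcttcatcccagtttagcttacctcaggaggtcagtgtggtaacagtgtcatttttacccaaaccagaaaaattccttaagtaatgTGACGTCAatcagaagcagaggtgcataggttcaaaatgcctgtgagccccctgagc

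Fosb: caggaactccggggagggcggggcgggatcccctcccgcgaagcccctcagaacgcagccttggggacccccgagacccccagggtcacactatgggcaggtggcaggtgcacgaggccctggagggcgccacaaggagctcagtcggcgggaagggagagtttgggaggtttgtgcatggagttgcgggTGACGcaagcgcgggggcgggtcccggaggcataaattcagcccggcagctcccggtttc

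Nr4a1: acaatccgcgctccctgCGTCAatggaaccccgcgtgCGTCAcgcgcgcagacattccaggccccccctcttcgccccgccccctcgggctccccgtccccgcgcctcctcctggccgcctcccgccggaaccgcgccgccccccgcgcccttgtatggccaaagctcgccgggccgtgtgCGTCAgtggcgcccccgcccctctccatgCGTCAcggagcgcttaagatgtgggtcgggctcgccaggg

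Of the genes tested, 8446 had a promoter in the table, searched over both strands in the same window. The full element stood in 3.23% of them. It stood in 3.55% of genes at least 2-fold higher after PGE1, 1.37% of those at least 2-fold lower and 3.68% of those that did not pass. The core, which the full element contains, stood in 32.1% of all promoters and in 30.9%, 26.4% and 32.7% of the same sets. The E-box CACGTG, bound by Myc with Max among other factors, stood in 10.2% of all and in 7.09%, 11.8% and 9.58%. Among a list of cAMP and CREB target genes, 10 of 15 promoters held the core and 0 of 15 the full element. A match of letters is a description and shows no binding.

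The PGE1 and PGE2 libraries differed in many genes. Of 11182 genes tested, 6031 (53.9%) passed the test between PGE1 and PGE2 (limma on log2(FPKM + 1), adjusted p under 0.05), 3086 (27.6%) higher and 2945 (26.3%) lower after PGE1. Most differences were small: the median absolute log2 difference was 0.33 over all genes and 0.55 over those called. At least 2-fold on that scale were 396 genes (3.54%) higher and 599 (5.36%) lower, and at least 4-fold were 28 (0.25%) and 58 (0.519%). The shares of 27.6% and 26.3% are the background for each count of list members below. In 7811 genes (69.9%) the 3 PGE1 libraries did not overlap with the 2 PGE2 libraries. Without PGE1 replicate 2 the test called 6647 genes. Leaving out a PGE2 library, which leaves a lone sample assumed to vary like the others, gave 4219 and 4211.

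For other genes the data bounded the difference. The 95% interval lay within a 1.5-fold difference for 5574 genes (49.8%) and within a 2-fold difference for 9120 (81.6%). Of the 5151 genes (46.1%) that did not pass, 4190 (37.5% of all tested) had an interval within 1.5-fold. Read against vehicle in the same fit, PGE1 called 5450 genes (48.7%; 24.0% higher and 24.7% lower) and PGE2 560 (5.01%; 0.93% and 4.08%). The 2 contrasts share the 3 vehicle libraries. At least 2-fold from vehicle were 271 genes (2.42%) higher and 436 (3.9%) lower after PGE1, and 2 (0.0179%) higher and 62 (0.554%) lower after PGE2. The median absolute log2 difference from vehicle was 0.26 for PGE1 and 0.12 for PGE2. Without DMSO replicate 1, whose fields disagree, the counts were 4646 for PGE1 and 439 for PGE2, and 5957 between the compounds. The PGE2 count was 3721 with sample quality weights and 229 with the replicate block. The PGE2 count also changed when a library was left out. It was 199 without DMSO replicate 2, 200 without DMSO replicate 3 and 1137 without PGE1 replicate 2. PGE1 replicate 2 is not in that contrast but shares the estimate of spread. The reason for these changes was not tested.

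**Figure D1:**
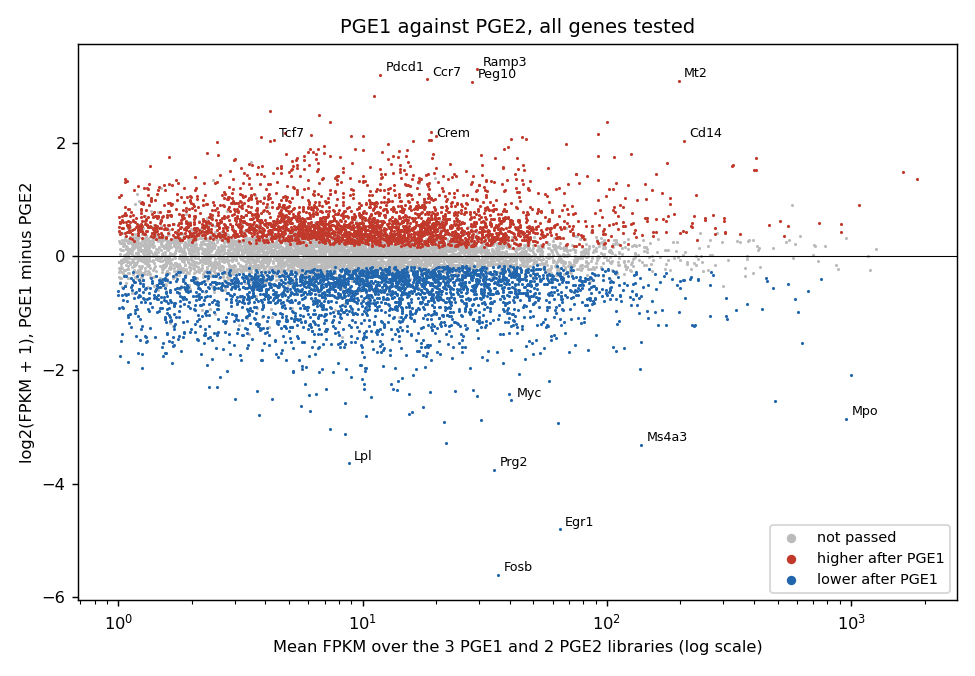
Each point is 1 of 11182 genes, placed by its mean FPKM over the 5 libraries (log axis) and its log2(FPKM + 1) difference, PGE1 minus PGE2. Red and blue points passed the test as higher (3086) and lower (2945) after PGE1, grey points did not, and the farthest points are Fosb and Egr1 below and Ramp3 above.

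Among the genes highest after PGE1 were receptors and immune regulators. The 15 genes named each way were picked from genes that passed and whose PGE1 and PGE2 libraries did not overlap, so neither trait is support for them. Ramp3, which encodes a partner of the calcitonin-like receptor for adrenomedullin, read 39.1, 54.2 and 46.3 FPKM after PGE1 and 3.95 and 3.66 after PGE2. Its vehicle level was 2.16 ± 0.432 (n = 3), the PGE1 and PGE2 libraries did not overlap, and the log2 difference between the compounds was 3.30 ± 0.15 (SE, limma adjusted p = 4.0e-06). Pdcd1, the gene of the checkpoint receptor PD-1, read 20.6, 20.1 and 16 FPKM after PGE1 and 1.21 and 1.09 after PGE2 (log2 difference 3.20 ± 0.13, adjusted p = 2.6e-06). Ccr7, a chemokine receptor that guides cells to lymph nodes, read 28.3, 31.5 and 27.3 FPKM after PGE1 and 2.84 and 2.1 after PGE2, on either side of vehicle at 5.24 ± 0.783. Every PGE1 library lay above the vehicle libraries in these genes, and in Ccr7 both PGE2 libraries lay below them. Npy, which encodes neuropeptide Y, and Tnfsf4, which encodes OX40 ligand, differed from Ramp3 in where vehicle lay. Npy read 27.1, 34.9 and 26.3 FPKM after PGE1 and 5.29 and 6.7 after PGE2 against 21.9, 24.7 and 24.4 in vehicle, and Tnfsf4 13.5, 13.1 and 13.6 FPKM after PGE1 and 2.11 and 2.51 after PGE2 against 5.71, 7.33 and 6.51. For Npy most of the gap lay between PGE2 and vehicle.

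The other genes with the 15 largest positive differences served several functions. Peg10, an imprinted gene derived from a retrotransposon, averaged 43.9 ± 6.05 against 4.35 ± 0.868 FPKM, a 10.1-fold difference of means. Gzmc averaged 17.5 ± 5.35 against 1.54 ± 0.188, although reads may be shared with close granzyme copies. Dgat1, whose enzyme makes triglyceride in its last step, averaged 149 ± 17 against 27.9 ± 0.406, and Slc18a2, the vesicular monoamine transporter of mast cells and platelets, 28.3 ± 2.27 against 5.38 ± 0.622. Hes1, a repressor downstream of Notch, averaged 11.4 ± 1.55 against 1.38 ± 0.0606, and P2ry10, a lipid-sensing G protein-coupled receptor, 10.3 ± 0.371 against 1.04 ± 0.392. Il2rb, a chain of the IL-2 and IL-15 receptors, averaged 7.46 ± 1.41 against 0.864 ± 0.175, Art4, which carries the Dombrock blood group, 6.77 ± 1.75 against 0.3001 ± 0.0429, and Neurl3, a ubiquitin ligase gene, 134 ± 19.9 against 29 ± 0.264. Adjusted p ran up to 3.2e-05 over these 9. The metallothionein gene Mt2 averaged 309.5 ± 267 against 27.9 ± 0.705 (adjusted p = 0.0011). Its 11.1-fold difference fell to 5.57-fold without PGE1 replicate 2, where it read highest.

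The farthest differences of all were falls in immediate early genes. Fosb, an AP-1 subunit, read 0.806, 0.923 and 0.794 FPKM after PGE1 and 86.8 and 90.1 after PGE2, with 108, 120.0 and 124 in vehicle. PGE1 libraries were near 1 FPKM and no other treated library was below 86.8, a log2 difference of -5.60 ± 0.08 (adjusted p = 2.3e-09). Egr1, a zinc finger factor induced by growth signals, read 5.74, 4.47 and 3.58 FPKM after PGE1 and 151 and 156 after PGE2, with 106, 83.2 and 86.1 in vehicle (log2 difference -4.80 ± 0.16, adjusted p = 1.2e-06). Here the compounds lay on opposite sides of vehicle: the difference from vehicle was -4.06 for PGE1 (adjusted p = 2.8e-07) and 0.74 for PGE2 (adjusted p = 0.034). Klf2, a quiescence-linked Kruppel-like factor, averaged 3.95 ± 0.716 against 32.8 ± 1.22 and Id1, an inhibitor of basic helix-loop-helix factors, 5.61 ± 3.01 against 45.2 ± 1.005.

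The rest of the 15 largest negative differences came from genes of several functions. Lpl, which encodes lipoprotein lipase, read 0.775, 0.81 and 0.67 FPKM after PGE1 and 20.6 and 21.1 after PGE2 and 33, 36.1 and 37.8 in vehicle, so that both compounds lay below vehicle and PGE1 lay lower (log2 difference between them -3.64 ± 0.08, adjusted p = 7.3e-08). Fabp4, a fatty acid carrier, averaged 1.19 ± 0.624 against 16.6 ± 3.62, and Srm, which encodes spermidine synthase, 17.4 ± 8.1 against 131 ± 7.41. The monocyte chemoattractant gene Ccl2 averaged 1.35 ± 0.57 against 19.1 ± 0.176, the cathelicidin gene Camp 8.37 ± 4.36 against 63.7 ± 3.01 and Klrb1f, a lectin receptor gene of the NK complex, 0.406 ± 0.0964 against 8.78 ± 0.714. In 5 others PGE1 replicate 1 lay well above replicates 2 and 3, or apart from 1 of them, and set the size. Without it the fold difference went from 8.75 to 24.7 for Prg2 (eosinophil major basic protein), from 8.55 to 15.2 for Ms4a3 (a granulocyte and monocyte progenitor gene) and from 10.6 to 17.2 for Clec12a (an inhibitory lectin of myeloid cells). For Mpo (myeloperoxidase) it went from 6.58 to 9.92 and for Stc2 (stanniocalcin) from 7.79 to 17.3.

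**Figure D2:**
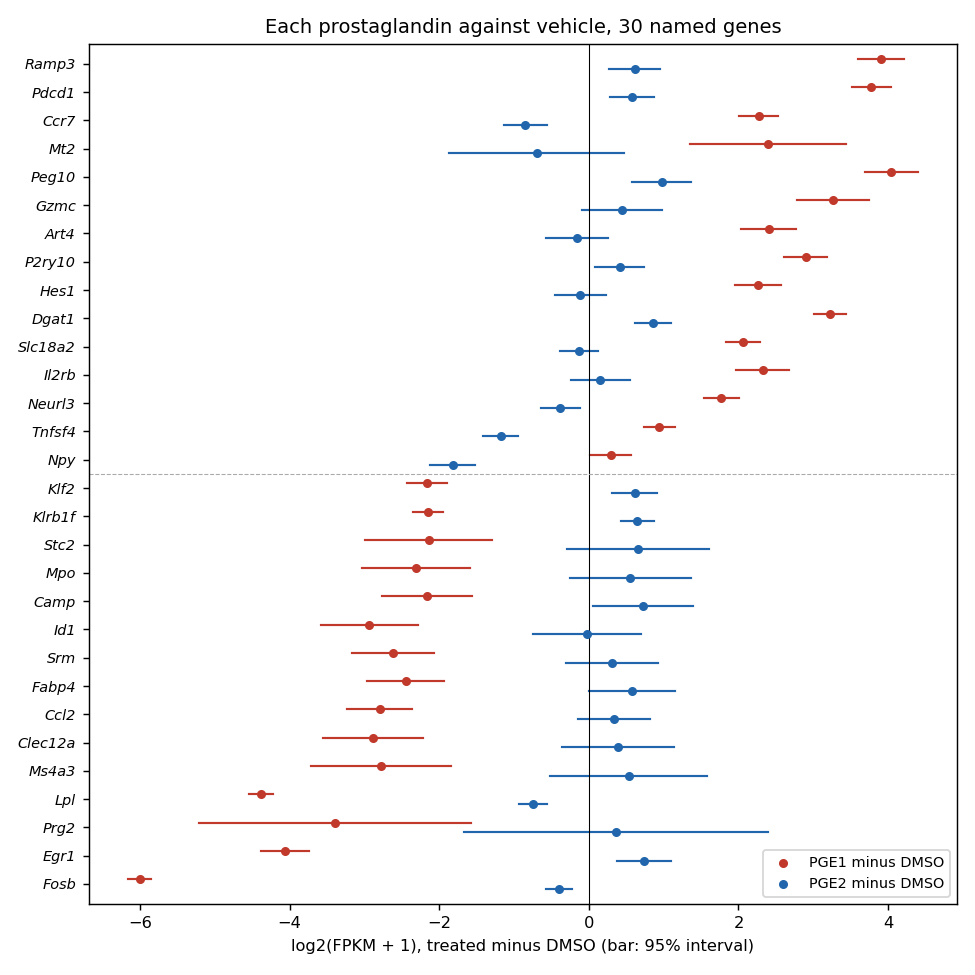
Log2(FPKM + 1) difference from vehicle (x axis) for the 15 genes highest and 15 lowest after PGE1 relative to PGE2, red for PGE1 and blue for PGE2, with 95% intervals from the fit as bars. The points of both colours are measured against the same 3 vehicle libraries, and PGE1 lies farther from 0 than PGE2 in all but Npy and Tnfsf4, where PGE2 lies farther.

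Of the 9 prostanoid receptor genes 5 reached the minimum level, and all 5 passed, 4 higher and 1 lower after PGE1, against 53.9% of all genes. Ptger2, the gene of the Gs-coupled EP2, read 5.05, 5.94 and 5.44 FPKM after PGE1 and 1.77 and 1.9 after PGE2 and 1.35, 1.65 and 1.51 in vehicle (log2 difference 1.19 ± 0.10, adjusted p = 3.3e-05). Ptger3, the gene of the Gi-coupled EP3, went the other way at 3.29, 2.62 and 3.21 FPKM after PGE1 and 7.4 and 8.07 after PGE2, with 7.98, 8.07 and 7.85 in vehicle (log2 difference -1.12 ± 0.09, adjusted p = 3.4e-05). The PGE2 libraries lay within or next to the vehicle range for both genes and the PGE1 libraries did not overlap with either group. Ptgir, the gene of the prostacyclin receptor IP, averaged 13 ± 1.02 against 7.5 ± 0.155 (adjusted p = 1.6e-04) with vehicle at 6.997 ± 0.427. Ptger1 (EP1) averaged 33 ± 1.36 against 26.6 ± 1.37 and had the highest level of the family. Its adjusted p was 0.0045, and 0.062 without PGE2 replicate 2. Ptger4 (EP4), also Gs-coupled, read 3.43, 2.87 and 4.22 FPKM after PGE1 and 2.21 and 2.62 after PGE2 and 4.78, 4.84 and 4.86 in vehicle, so both compounds lay below vehicle, PGE2 lower (adjusted p = 0.029 between them). That call was lost without PGE1 replicate 1 (adjusted p = 0.054) or 3 (0.065) and without PGE2 replicate 1 (0.19) or 2 (0.057). Tbxa2r, Ptgdr2, Ptgfr and Ptgdr averaged 0.726, 0.234, 0.00343 and 0 FPKM after PGE1 and 1.21, 0.634, 0.0052 and 0.00721 after PGE2 and were not tested.

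Enzymes that make and break down prostaglandins were mixed, 3 higher and 5 lower of 12 tested (median log2 difference -0.21, against 0.03 over all genes). Ptgr1, which reduces prostaglandins and leukotrienes, averaged 122 ± 26.1 against 46.6 ± 2.04, and Ptgs2, the inducible cyclooxygenase COX-2, 9.77 ± 0.306 against 6.32 ± 0.732. Lower after PGE1 were the constitutive cyclooxygenase Ptgs1 (12.9 ± 1.62 against 25.3 ± 0.674), thromboxane synthase Tbxas1 (11.7 ± 1.45 against 18.7 ± 0.624) and Ptges3 (19.3 ± 1.98 against 26.7 ± 0.783). Without PGE2 replicate 1 the counts were 2 and 3, and without replicate 2 the same numbers.

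Genes that carry and limit the cAMP signal were more often higher than lower after PGE1. Of 22 tested, 12 were higher and 2 lower, against 27.6% and 26.3% of all genes, with a median log2 difference of 0.36. The phosphodiesterases led. Pde3b read 20.6, 17.8 and 22.5 FPKM after PGE1 and 4.95 and 4.74 after PGE2 and 2.64, 3.51 and 3.32 in vehicle, a 4.19-fold difference between the compounds (log2 difference 1.86 ± 0.12, adjusted p = 1.2e-05). Pde4d averaged 9.28 ± 1.005 against 2.55 ± 0.241, Pde7b 7.87 ± 1.45 against 1.65 ± 0.0216 and Pde8a 14.1 ± 0.904 against 7.75 ± 0.573. The PGE1 libraries lay above all PGE2 libraries in each. Regulatory subunits of protein kinase A split: Prkar2a averaged 4.62 ± 1.16 against 12.9 ± 0.496 and Prkar2b 47.4 ± 2.07 against 31.7 ± 0.517. Gnai2, a Gi subunit and the member with the highest level, read 262, 287 and 259.9 FPKM after PGE1 and 260.4 and 272 after PGE2 (95% interval of the log2 difference -0.17 to 0.21). The counts were 9 and 1 without PGE2 replicate 1 and 8 and 1 without replicate 2.

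Of 12 CREB-family factors and coactivators 7 were higher after PGE1 and the others did not pass. Crem, a CREB relative whose short product represses cAMP targets, read 22.4, 34.6 and 26.3 FPKM after PGE1 and 6.32 and 5.44 after PGE2 and 3.86, 4.52 and 4.17 in vehicle (log2 difference 2.05 ± 0.16, adjusted p = 2.4e-05). The FPKM values do not tell its isoforms apart. Crtc3, a coactivator of CREB, averaged 12.2 ± 1.02 against 8.26 ± 0.0407. The count rests on small differences, as 4 were higher without PGE1 replicate 3, 4 without PGE2 replicate 1 and 2 without PGE2 replicate 2.

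Genes known as cAMP and CREB targets moved in both directions, 12 higher and 8 lower of 23 tested (median 0.54). Besides Ramp3, the G protein regulators Rgs1 and Rgs2 were higher after PGE1. Rgs2 read 37.7, 50.3 and 41.3 FPKM after PGE1 and 11.8 and 11.8 after PGE2 and 15.8, 15.4 and 14.3 in vehicle, and Rgs1 46.7, 58.4 and 56.7 FPKM after PGE1 and 13.4 and 14.3 after PGE2 and 22.7, 22.1 and 21.8 in vehicle. Between the compounds both genes had adjusted p of at most 1.0e-05. The PGE1 libraries lay above vehicle and the PGE2 libraries below every vehicle library, but for PGE2 against vehicle no more than 1 of these genes passed. Nr4a1 averaged 7.45 ± 0.389 against 4.12 ± 0.053 and its relative Nr4a2 3.77 ± 0.415 against 1.21 ± 0.0689. These NR4A genes, the salt-inducible kinase gene Sik1 (11.8 ± 0.801 against 5.0004 ± 0.703) and the clock gene Per1 (13.3 ± 0.842 against 6.83 ± 0.493) were not among the 6 members with the smallest p and are named after their values were seen. Fosb led those lower after PGE1, followed by Id1, Id3 (4.09 ± 0.385 against 13.7 ± 0.812) and the kinase gene Pim3 (6.97 ± 1.29 against 18.3 ± 0.522).

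In the wider list of receptor desensitization, 5 of 11 were higher and 2 lower. Grk5, a kinase that silences active receptors, averaged 3.67 ± 0.249 against 1.29 ± 0.294. Adrbk1 and Arrb2, a receptor kinase and an arrestin of high level, averaged 92.4 ± 2.71 against 86.1 ± 0.56 and 57.3 ± 4.91 against 50.9 ± 3.77 and passed only after quantile normalization, which called 1 member lower. Without PGE2 replicate 1 or replicate 2, 3 were higher and neither lower member passed. Without PGE1 replicate 3 they were 3 and 1, and without DMSO replicate 1, 2 or 3 a single member was lower.

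**Figure D3:**
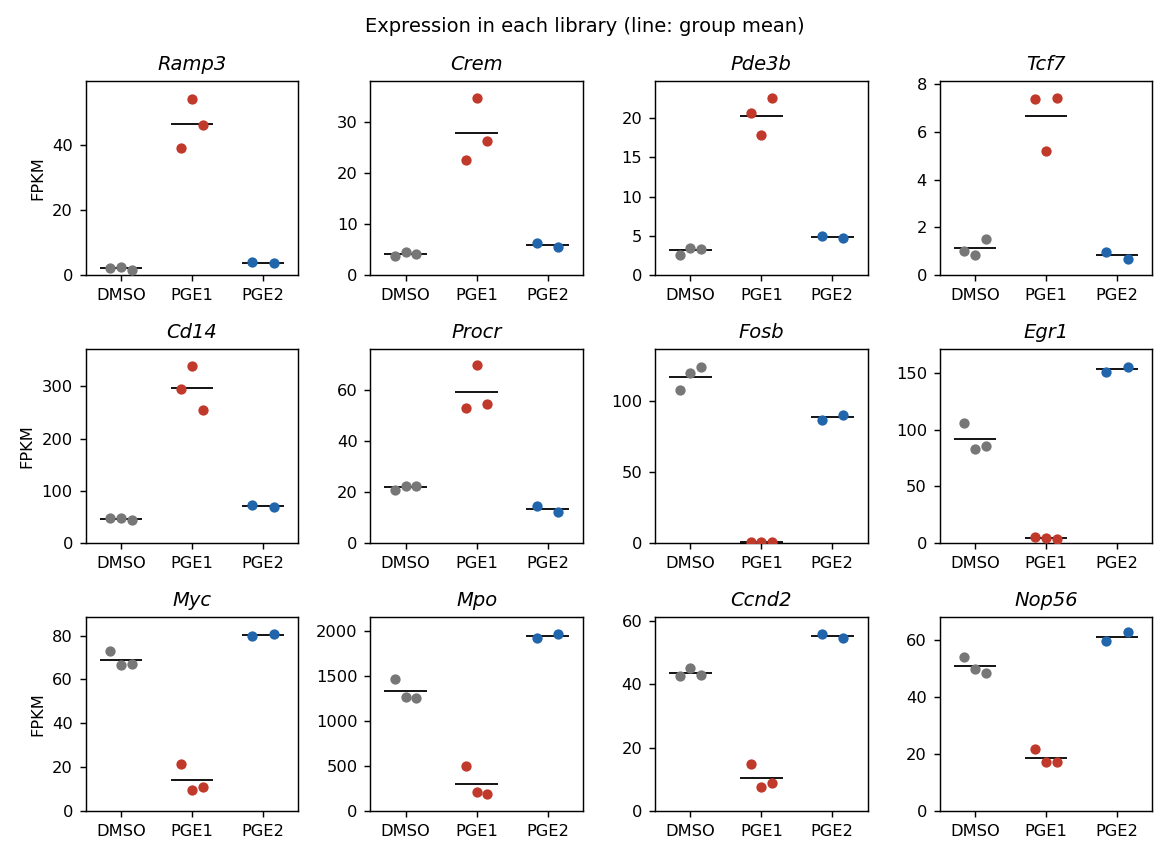
FPKM in each library (points, in replicate order within a group) for 12 genes of 3 vehicle, 3 PGE1 and 2 PGE2 libraries, with group means as lines and separate y axes from 0. The first 6 panels show genes higher after PGE1 and the last 6 genes lower after PGE1, and in each panel the PGE1 points do not overlap with the PGE2 points.

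AP-1 genes did not move as a block. Of 15 subunit genes tested 3 were higher and 7 lower after PGE1 (median -0.35), and 10 were lower without PGE1 replicate 2. Quantile normalization called 5 higher. Fosl2, a Fos relative, read 54.6, 48.9 and 51.4 FPKM after PGE1 and 17.5 and 16.3 after PGE2 and 11.8, 14.3 and 14.5 in vehicle (log2 difference 1.56 ± 0.10, adjusted p = 9.7e-06). Fos itself read 99.7, 129.9 and 111 FPKM after PGE1 and 213 and 233 after PGE2 and 131, 106 and 116 in vehicle. For Fos the PGE1 libraries lay near vehicle and the PGE2 libraries above it: the log2 difference from vehicle was -0.06 for PGE1 (adjusted p = 0.71) and 0.92 for PGE2 (adjusted p = 0.005). Jund, an AP-1 subunit linked to growth arrest, read 56.7, 60.1 and 54.9 FPKM after PGE1 and 76.4 and 81 after PGE2 against 230.4, 267 and 280.5 in vehicle. There both compounds lay far below vehicle, and the difference between them was -0.45 ± 0.09 on the log2 scale (adjusted p = 0.0034). Maf, a large Maf factor of macrophages, averaged 2.11 ± 0.64 against 6.17 ± 0.0977 and Mafk, a small one, 23.3 ± 0.729 against 14.9 ± 0.262.

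Other immediate early genes gave 6 higher and 8 lower of 20, and MAP kinase feedback genes 3 and 4 of 12. Beside Egr1 and Klf2, Myc, the growth regulator, read 21.6, 9.4 and 10.9 FPKM after PGE1 and 79.7 and 80.8 after PGE2 and 73, 66.3 and 67.1 in vehicle (log2 difference -2.53 ± 0.27, adjusted p = 9.9e-05). PGE1 replicate 1 was the highest of its group and still well below every other treated library. The antiproliferative genes Btg2 (23 ± 2.21 against 8.16 ± 0.365) and Btg1 (37.9 ± 3.93 against 16.3 ± 1.21) were higher after PGE1. Dusp5, a phosphatase of nuclear ERK, averaged 51.7 ± 2.86 against 19.7 ± 0.447 and Dusp7, another ERK phosphatase, 1.91 ± 0.289 against 7.51 ± 0.03999. Klf6 and Nfil3 did not pass, with 32.4 ± 2.17 against 29.9 ± 0.52 and 27.8 ± 1.74 against 25.7 ± 2.43 and intervals of -0.09 to 0.31 and -0.09 to 0.31, and Dusp6, an ERK target, gave -0.05 to 0.30. Without PGE2 replicate 1, 3 of the other immediate early genes were higher, and without PGE2 replicate 2, 2 of the feedback genes were lower.

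STAT5, a transcription factor that BCR-ABL activates, drives Pim kinases, SOCS inhibitors and D cyclins. All 17 genes of this list passed, against 53.9% of all, 5 higher and 12 lower after PGE1 (27.6% and 26.3% of all, list median -0.44). Cish read 7.45, 8.33 and 6.29 FPKM after PGE1 and 26.2 and 26.9 after PGE2 and 35.3, 37.4 and 35.8 in vehicle, and Socs1 4.51, 3.52 and 2.84 FPKM after PGE1 and 20.04 and 18.7 after PGE2 and 31.7, 31.8 and 36.1 in vehicle. For Cish, Socs1 and Socs3 (6.13 ± 0.595 against 20.3 ± 0.221, vehicle 36.6 ± 0.839) PGE2 also lay below vehicle, with log2 differences from it of -0.43, -0.75 and -0.82 (adjusted p = 0.043, 0.019 and 9.3e-04). The pattern differed for Ccnd2, which encodes cyclin D2, at 14.7, 7.63 and 8.88 FPKM after PGE1 and 56.1 and 54.8 after PGE2 and 42.7, 45.1 and 43 in vehicle. PGE1 lay below the vehicle libraries and PGE2 above them (log2 difference between the compounds -2.36 ± 0.21, adjusted p = 4.0e-05). The difference of PGE2 from vehicle did not pass for Ccnd2. Bcl6, a repressor that STAT5 silences in many cells, averaged 8.35 ± 1.07 against 1.86 ± 0.123 (adjusted p = 1.3e-05). Without PGE2 replicate 1 the counts were 3 and 11, and without replicate 2 3 and 8.

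Of 15 partners and adaptors of BCR-ABL tested 7 were higher and 1 lower after PGE1 (median 0.30), the higher ones by less than 2-fold. The adaptors Shc1 (24.7 ± 0.672 against 16.6 ± 0.447) and Gab2 (11.1 ± 0.79 against 7.33 ± 0.149) and the kinase Lyn (41 ± 4.1 against 27.7 ± 0.35) were higher. Ptpn6, the phosphatase SHP-1, read 71.3, 82.3 and 73.5 FPKM after PGE1 and 75 and 78.8 after PGE2, with an interval of -0.21 to 0.16.

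Tcf7, the Wnt-pathway factor that the series deletes in other samples, read 7.37, 5.21 and 7.4 FPKM after PGE1 and 0.989 and 0.702 after PGE2 (log2 difference 2.04 ± 0.18, adjusted p = 3.8e-05). The vehicle libraries, given above, lay with the PGE2 libraries. The Wnt list as a whole gave 2 higher and 3 lower of 13 (median 0.03). Ccnd1, which encodes cyclin D1, went the other way at 0.946, 0.554 and 0.639 FPKM after PGE1 and 6.12 and 5.7 after PGE2 and 7.09, 6.86 and 6.34 in vehicle (adjusted p = 7.0e-06). Fzd7, a Wnt receptor, averaged 2.59 ± 0.403 against 4.9 ± 0.686. Axin1, a scaffold of the complex that destroys beta-catenin, gave 16.8 ± 0.429 against 16.2 ± 0.805 with an interval of -0.10 to 0.19. Lef1 averaged 0.318 and 0.259 FPKM and was not tested. With PGE2 replicate 1 or replicate 2 left out the list gave 1 higher and 2 lower.

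Stem cell genes split, 6 higher and 8 lower of 22 tested (median -0.16). Procr, the endothelial protein C receptor and a surface marker of long-term stem cells, read 52.8, 69.4 and 54.4 FPKM after PGE1 and 14.3 and 12.1 after PGE2 and 20.8, 22.2 and 22.3 in vehicle (log2 difference 2.07 ± 0.12, adjusted p = 7.7e-06). Every PGE1 library lay above vehicle and both PGE2 libraries below it. The stem cell factors Meis1 (15.1 ± 1.12 against 6.04 ± 0.349) and Gata2 (60.1 ± 2.81 against 33.2 ± 0.551) were also higher. Cd34, a progenitor surface marker, read 20.3, 19.1 and 18.8 FPKM after PGE1 and 46.1 and 48.7 after PGE2 and 42.7, 40.5 and 39.5 in vehicle (adjusted p = 6.0e-06), and Cd48, carried by more mature progenitors, averaged 14.9 ± 1.02 against 25.3 ± 0.897. Lmo2 averaged 51.7 ± 1.25 against 75.6 ± 1.24. Ly6a gave an interval of -0.35 to 0.38. Without PGE2 replicate 1 the counts were 5 and 4, and without replicate 2 6 and 3.

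Homing and adhesion genes gave 6 higher and 6 lower of 19. S1pr1, the receptor that draws cells toward sphingosine 1-phosphate in blood, read 9.8, 10.5 and 10.1 FPKM after PGE1 and 2.15 and 2.13 after PGE2 and 1.33, 1.45 and 1.73 in vehicle (log2 difference 1.82 ± 0.09, adjusted p = 6.0e-06). Itgb7, an integrin chain of gut homing, averaged 83.1 ± 8.05 against 35.2 ± 0.639. The ligand gene Vcam1 (0.581 ± 0.264 against 4.88 ± 0.196) and the integrin chain Itgal (16.2 ± 1.77 against 32.8 ± 1.65) were lower after PGE1. Cxcr4, the receptor that retains stem cells in marrow, averaged 70.7 ± 2.69 against 47.9 ± 0.838 with vehicle at 40.8 ± 1.7, named after its values were seen. Itgam gave an interval of -0.26 to 0.11.

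Granule genes of neutrophil precursors were lower after PGE1. The early granule list also holds transcription factors and a receptor gene of this lineage. Of its 12 genes 10 were lower and 1 higher (median -1.65), against 26.3% and 27.6% of all genes. Elane, which encodes neutrophil elastase, read 623, 396 and 324 FPKM after PGE1 and 1833 and 1831 after PGE2 and 1440.3, 1209 and 1176 in vehicle (log2 difference -2.09 ± 0.24, adjusted p = 1.6e-04). Mpo read 494, 206 and 187 FPKM after PGE1 and 1923 and 1969 after PGE2 and 1472, 1268 and 1252 in vehicle, with PGE1 replicate 1 the highest of its group and the fold given above. In both genes the PGE2 libraries lay above every vehicle library and the PGE1 libraries below. Against vehicle, however, 0 members of the list passed after PGE2 (5.01% of all genes did). After PGE1 10 members were lower than vehicle and 1 higher (24.7% and 24.0% of all genes). Among the 10 lower members were also transcription factors and a receptor gene. Cebpa averaged 41.8 ± 8.72 against 123 ± 3.38 and Gfi1 7.25 ± 2.79 against 30.5 ± 0.546, and the G-CSF receptor gene Csf3r 5.71 ± 0.771 against 12.2 ± 1.51. Summed over the list, levels were 1789.5 to 2895 FPKM after PGE1, 7161 to 7216 after PGE2 and 4972 to 5844 in vehicle. Gstm1 was the member that was higher (148 ± 27.1 against 97.4 ± 2.38), and Srgn, the granule proteoglycan, gave 713 ± 61.3 against 755 ± 29.9 with an interval of -0.34 to 0.17. In bulk RNA, fewer cells of a type and less RNA per cell cannot be told apart.

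The late granule list also holds surface markers such as Itgam. Of its 11 tested genes 8 were lower and the others did not pass (median -0.71). Sums over the list were 1195 to 1779.6 FPKM after PGE1, 2285 to 2294 after PGE2 and 1675 to 1971 in vehicle. Ltf, the lactoferrin gene, averaged 6.59 ± 2.01 against 30.4 ± 2.17, Camp is given above and Ngp averaged 148 ± 27.5 against 338 ± 17. Mmp8 did not pass (19.1 ± 1.71 against 20.6 ± 0.387, interval -0.28 to 0.07), and Ly6g, a defining marker of mature neutrophils, was near 0 in both groups (0.276 and 0.37 FPKM). When PGE2 replicate 1 was left out 5 were lower, and without replicate 2 4.

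Monocyte and macrophage markers gave 14 lower and 3 higher of 23 (median -0.55), against 26.3% and 27.6% of all genes. Adgre1, the gene of the macrophage antigen F4/80, read 3.52, 3.24 and 3.36 FPKM after PGE1 and 15.9 and 16.6 after PGE2 and 17.8, 16.7 and 17.9 in vehicle (log2 difference -1.98 ± 0.07, adjusted p = 1.3e-06). Irf8, the factor that directs monocyte fate, averaged 9.56 ± 0.572 against 30.9 ± 1.91, F13a1 18.9 ± 4.65 against 81.1 ± 0.356 and the perforin-like Mpeg1 26.2 ± 0.815 against 62.4 ± 0.494. Cd14, the coreceptor for lipopolysaccharide, ran against the list at 295, 339 and 255 FPKM after PGE1 and 72.1 and 69.6 after PGE2 and 47.7, 47.4 and 44.7 in vehicle (log2 difference 2.04 ± 0.11, adjusted p = 6.0e-06). The C-type lectins Clec4d (242 ± 45.7 against 76 ± 3.3) and Clec4e (39.3 ± 4.69 against 15.7 ± 1.28) did so too and were named after their values were seen. All 5 eosinophil markers above the minimum were lower (median -1.61), beside the same 26.3%: Siglecf averaged 2.13 ± 0.471 against 6.02 ± 0.18 and Siglece, also found on neutrophils, 0.837 ± 0.182 against 3.99 ± 0.339. Prg2 had the highest level of them at 19.3, 0.245 and 5.73 FPKM after PGE1 and 68.9 and 78.6 after PGE2, so that PGE1 libraries ranged widely. For Epx, eosinophil peroxidase (0.662 ± 0.968 against 5.55 ± 0.0732), the 8.38-fold difference became 52.3 without PGE1 replicate 1 and 5.59 without replicate 2. Prg3 averaged 1.04 ± 0.938 against 4.72 ± 0.65, 4.53-fold or 7.24 without PGE1 replicate 1, and its adjusted p of 0.0066 rose as high as 0.05 when a library was left out.

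Mast cell and basophil markers gave 8 higher and 2 lower of 12 (median 0.85), against 27.6% and 26.3% of all genes, with sums of 367 to 484 FPKM after PGE1, 259 to 261 after PGE2 and 358 to 373 in vehicle. Cma1, a mast cell chymase, averaged 13.6 ± 4.85 against 2.86 ± 0.843, Hdc, the enzyme that makes histamine, 88.6 ± 9.3 against 47 ± 0.854, Cpa3, a mast cell carboxypeptidase, 31.6 ± 4.43 against 16.4 ± 0.237 and the basophil protease Mcpt8 113 ± 19.5 against 63.4 ± 0.329. Slc18a2 read 25.7, 29.2 and 29.9 FPKM after PGE1 and 5.82 and 4.94 after PGE2 and 5.23, 6.32 and 6.48 in vehicle, a log2 difference of 2.20 ± 0.11 (adjusted p = 5.8e-06). Gzmb was higher after PGE1 than after PGE2 (106 ± 15.5 against 72 ± 2.6), with vehicle above both at 161 ± 5.96. Ms4a2, a chain of the IgE receptor, did not pass (3.97 ± 0.574 against 4.25 ± 0.0634, interval -0.37 to 0.20). With PGE1 replicate 1 or 3 left out 1 member was lower, and with a PGE2 library left out neither lower member passed.

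Erythroid markers gave 6 higher and 3 lower of 11 (median 0.38). Gata1, the master factor of red cells, megakaryocytes and mast cells, read 19.3, 21.8 and 20.7 FPKM after PGE1 and 6.47 and 7.23 after PGE2 and 7.85, 7.02 and 6.14 in vehicle (log2 difference 1.46 ± 0.10, adjusted p = 1.8e-05). Car2, carbonic anhydrase, averaged 65.2 ± 4.92 against 14.3 ± 0.326 and Klf1, an erythroid factor, 4.84 ± 1.03 against 1.17 ± 0.499. The transferrin receptor gene Tfrc was lower (23.2 ± 7.88 against 80.5 ± 0.0606). Globin genes may share reads among copies. With any library but PGE1 replicate 2 left out, 1 erythroid marker was lower. Megakaryocyte markers gave 6 higher and 4 lower of 17 (median 0.03). Gfi1b averaged 13.8 ± 0.759 against 6.68 ± 0.358 and Thbs1, thrombospondin, 1323 ± 126 against 699 ± 17.3 with vehicle at 370.4 ± 20.1, while the platelet chemokine Ppbp averaged 10.4 ± 0.788 against 36.4 ± 2.06 and P-selectin, Selp, 1.2 ± 0.294 against 4.09 ± 0.245.

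Lists of other cell types held few expressed genes. The B cell list had 3 of 14 genes tested and the T and NK cell list 4 of 16, with 2 higher and 1 lower. Nkg7, a cytotoxic granule gene, averaged 10.4 ± 4.75 against 58.1 ± 0.63. Gzma averaged 3.65 ± 0.592 against 0.314 ± 0.148 (11.6-fold, 17.4-fold without PGE2 replicate 2), with Cd3e at 0.382 and 0.0343 FPKM. In the B cell list Cd79b averaged 4.06 ± 0.588 against 6.54 ± 0.5004, and 1 gene was higher, which did not pass without PGE2 replicate 1. Of 9 antigen presentation and dendritic cell genes 4 were lower and the others did not pass: H2-DMa, which helps load peptides, averaged 9.4 ± 1.15 against 25.5 ± 0.621 and H2-DMb1 5.8 ± 0.516 against 12.4 ± 0.154. Stromal and endothelial genes had 5 of 14 tested, 2 higher and 1 lower. Among them the angiopoietin receptor Tek averaged 1.99 ± 0.172 against 0.315 ± 0.0661.

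Genes of DNA replication were lower after PGE1. Of 19 G1/S and replication genes 16 were lower and the others did not pass (median -0.51), against 26.3% of all genes. Ccne1, which encodes cyclin E1, read 3.46, 2.57 and 2.48 FPKM after PGE1 and 9.61 and 10.1 after PGE2 and 9.34, 8.31 and 8.82 in vehicle (log2 difference -1.51 ± 0.12, adjusted p = 2.4e-05). Rrm2, a subunit of ribonucleotide reductase, averaged 28.4 ± 5.31 against 69.5 ± 2.01, Cdc6, which loads the replicative helicase, 3.47 ± 0.282 against 7.75 ± 0.0287 and the helicase subunit Mcm2 38.3 ± 3.87 against 68.4 ± 0.437. Mitotic genes gave 3 higher and 3 lower of 19 (median 0.03), and 7 higher without PGE1 replicate 2. Quantile normalization called 5 of them higher and median-of-ratios scaling 5 lower. Cenpa, the centromere histone, averaged 137 ± 15.2 against 59.6 ± 3.54 and Cdc20, an activator of the anaphase complex, 77.9 ± 1.98 against 50.1 ± 2.61. The inhibitors Cdkn1b (p27, 31.5 ± 2.21 against 13.4 ± 0.753) and Cdkn1a (p21, 146 ± 9.52 against 96.8 ± 0.0423) were higher, and 4 of 8 inhibitor and G1 cyclin genes were lower, 2 of them without PGE2 replicate 1 or 2, led by Ccnd1 and Ccnd2.

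All 19 ribosome biogenesis and nucleolar genes were lower after PGE1 (median -1.30), against 26.3% of all genes, and the same held without PGE1 replicate 2 (19 lower). Many of these genes are known Myc targets. Nop56, a core protein of the box C/D particles that methylate ribosomal RNA, read 21.6, 17.1 and 17 FPKM after PGE1 and 59.5 and 62.7 after PGE2 and 54, 49.9 and 48.5 in vehicle (log2 difference -1.67 ± 0.11, adjusted p = 1.1e-05). Its partner Nop58 averaged 27.5 ± 3.04 against 78.5 ± 1.91, the RNA methyltransferase Nop2 13.8 ± 1.65 against 41.4 ± 0.0955, the nucleolar scaffold Nolc1 12.4 ± 2.7 against 50.4 ± 0.0201 and nucleolin, Ncl, 55.2 ± 3.94 against 119 ± 2.86. Against vehicle the list's median log2 difference was -1.11 after PGE1, with 18 lower, and 0.17 after PGE2. In the promoters of this list 1 of 15 held the E-box. Ribosomal protein genes stayed closer, 1 higher and 2 lower of 31 (median 0.15), but quantile normalization called 17 higher and 2 lower, so no direction is given. Without PGE1 replicate 2, 4 were lower, and without PGE2 replicate 1 or 2 the member that was higher did not pass and 1 was lower. Rpl8 gave an interval of -0.21 to 0.49. Many ribosomal protein genes have pseudogene copies that may share reads.

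Glycolysis and hypoxia genes gave 13 lower and 2 higher of 19 (median -0.74), against 26.3% and 27.6% of all genes. Pdk1, which keeps pyruvate from the mitochondria, read 8.1, 5.86 and 5.05 FPKM after PGE1 and 23.5 and 22.5 after PGE2 and 16.1, 14.9 and 15 in vehicle, with the compounds on opposite sides of vehicle (log2 difference between them -1.73 ± 0.15, adjusted p = 3.5e-05). Pfkp, a phosphofructokinase, averaged 24.4 ± 3.57 against 63 ± 0.173, Hk2, a hexokinase, 17 ± 3.24 against 40.1 ± 0.0419 and the glucose transporter Slc2a1 47.7 ± 2.08 against 76.9 ± 0.914. Pkm, pyruvate kinase, read 562, 618 and 544 FPKM after PGE1 and 589 and 583 after PGE2 (interval -0.26 to 0.20). Without a PGE2 library 1 member was higher. Of 18 oxidative phosphorylation genes 11 were lower and the others did not pass (median -0.31), each by less than 2-fold: Ndufs1 averaged 21.9 ± 1.1 against 29 ± 1.34 and Sdha 64.7 ± 2.55 against 82.3 ± 2.84. There were 15 lower without PGE1 replicate 2, 5 without PGE2 replicate 1 and 6 without PGE2 replicate 2.

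The list of the unfolded protein and amino acid responses gave 17 lower and 4 higher of 26 (median -0.66), against 26.3% and 27.6% of all genes. Hspa5, the chaperone BiP, read 229.7, 215 and 198 FPKM after PGE1 and 452 and 435 after PGE2 and 418, 419.8 and 394 in vehicle (log2 difference -1.05 ± 0.09, adjusted p = 3.8e-05). The chaperone Hsp90b1 averaged 185 ± 18.6 against 384 ± 8.6 and the disulfide isomerase Pdia4 52.4 ± 5.15 against 111 ± 4.01. Ddit4, an inhibitor of mTORC1, ran against the list at 115, 135 and 136 FPKM after PGE1 and 35.5 and 38.3 after PGE2 and 31.8, 27.7 and 27.8 in vehicle (log2 difference 1.77 ± 0.10, adjusted p = 6.1e-06). Of 14 heat shock genes 6 were lower and the others did not pass. Hspd1, a mitochondrial chaperonin, averaged 26.8 ± 2.98 against 62.9 ± 0.551 and Hspa8 66.5 ± 7.58 against 113 ± 0.285. Hspa1b, whose PGE1 libraries are given above, did not pass (adjusted p = 0.11), and without PGE1 replicate 2 it was 0.019, without replicate 3 0.033, with a fold of 4.24 that fell to 1.53 without replicate 2. With PGE1 replicate 1, 2 or 3 left out 1, 1 and 2 heat shock genes were higher. Cholesterol synthesis genes gave 8 higher and 2 lower of 21 (median 0.20). Srebf2, which encodes the factor that activates these genes, averaged 81.7 ± 6.34 against 58.1 ± 0.328 with vehicle at 53.6 ± 1.31. Without any vehicle library, PGE1 replicate 2 or 3 or either PGE2 library, 1 of them was lower.

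Of 15 p53 target genes 13 were higher and 1 lower (median 0.62), against 27.6% and 26.3% of all genes. Bbc3, which encodes the BH3-only killer PUMA, read 28.6, 34.2 and 32.2 FPKM after PGE1 and 9.51 and 9.46 after PGE2 and 14.4, 12.9 and 13.4 in vehicle (log2 difference 1.63 ± 0.09, adjusted p = 6.0e-06). Trp53inp1 averaged 23.6 ± 2.17 against 4.996 ± 0.357 and Mdm2, the ligase that limits p53, 47.9 ± 2.09 against 30.6 ± 0.901. For the BCL2 family the counts were 8 higher and 4 lower of 14, and 5 were higher with median-of-ratios scaling. Bcl2l11, which encodes the killer BIM, read 18.5, 17.6 and 19.6 FPKM after PGE1 and 4.19 and 3.76 after PGE2 and 4.67, 6.06 and 6.25 in vehicle (log2 difference 1.97 ± 0.11, adjusted p = 7.7e-06). The BH3-only gene Bmf averaged 4.68 ± 0.694 against 0.909 ± 0.0726, while the survival gene Bcl2l1 averaged 10.5 ± 1.59 against 16.3 ± 0.399 and the BH3-only gene Bid 11.4 ± 1.79 against 21.6 ± 0.341. Both killer and survival genes are in the list, so its count has no direction of its own. Without DMSO replicate 2 or PGE2 replicate 2, 5 were higher, and without PGE2 replicate 1 or 2, 2 were lower.

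Genes of FoxO factors, which kinase signalling through AKT keeps inactive, and clock genes gave 11 higher and 6 lower of 23 (median 0.31). Ccng2, an atypical cyclin, averaged 31.4 ± 3.74 against 11.2 ± 0.364, Pik3ip1, an inhibitor of PI3-kinase, 16.2 ± 2.7 against 5.58 ± 0.0758, Sesn3 7.24 ± 0.807 against 1.87 ± 0.321 and Foxo1 itself 4.85 ± 0.547 against 1.72 ± 0.137. Klf2, also a FoxO target in lymphocytes, was lower as given above. Bhlhe40 read 27.8, 28.2 and 27.4 FPKM after PGE1 and 28.9 and 28.5 after PGE2 (interval -0.18 to 0.09).

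Of 19 NF-kB genes 14 were higher and 3 lower after PGE1 than after PGE2 (median 0.70), against 27.6% and 26.3% of all genes. Relb read 11.2, 11.2 and 12.2 FPKM after PGE1 and 3.63 and 3.32 after PGE2 and 6.26, 5.9 and 7.54 in vehicle (log2 difference 1.48 ± 0.10, adjusted p = 1.8e-05), so that PGE2 lay below vehicle and PGE1 above. Nfkb2, its partner, averaged 28 ± 1.73 against 13.4 ± 0.475 with vehicle at 21.1 ± 1.03, and the feedback inhibitor Tnfaip3 10.8 ± 0.471 against 3.41 ± 0.194. Ccl5, a chemokine, read 12.7, 18.1 and 13 FPKM after PGE1 and 2.94 and 3.46 after PGE2 and 23.4, 22.2 and 24.6 in vehicle. Both compounds lay below vehicle there, PGE2 farther. Against vehicle, 10 NF-kB genes were higher and 5 lower after PGE1 (24.0% and 24.7% of all genes), and after PGE2 7 were lower (4.08% of all) and the others did not pass. Lower after PGE1 than after PGE2 were Tnf (2.38 ± 0.29 against 4.47 ± 0.679), Cxcl2 (5.16 ± 0.982 against 9.56 ± 1.11) and Icam1 (8.18 ± 0.296 against 11.7 ± 0.121), named as the members that ran against the list.

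Interferon-stimulated genes gave 10 higher and 5 lower of 19 (median 0.36). Against vehicle 4 were higher and 9 lower after PGE1 (24.0% and 24.7% of all genes). After PGE2 4 were lower than vehicle (4.08% of all) and the others did not pass. The list's median log2 difference from vehicle was -0.14 after PGE1 and -0.31 after PGE2. Ifitm1, a membrane protein that blocks virus entry, read 466, 605 and 558 FPKM after PGE1 and 198 and 179 after PGE2 and 226, 223 and 205 in vehicle. Stat2 averaged 16.2 ± 1.34 against 7.72 ± 0.0507 and Rsad2, the antiviral viperin, 16.9 ± 3.03 against 5.45 ± 0.767. Irf7 (4.91 ± 0.391 against 9.89 ± 0.601) and the immunoproteasome subunit Psmb8 (88.3 ± 10.3 against 153 ± 0.103) were lower. Leaving out PGE2 replicate 1 left 3 lower. Secreted cytokines and growth factors gave 5 higher and 6 lower of 13. Ltb, lymphotoxin beta, averaged 4.67 ± 0.248 against 1.71 ± 0.288, Csf1, the macrophage growth factor, 14.4 ± 2.45 against 6.88 ± 0.576 and Tgfb1 144 ± 5.64 against 198 ± 0.535.

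**Figure D4:**
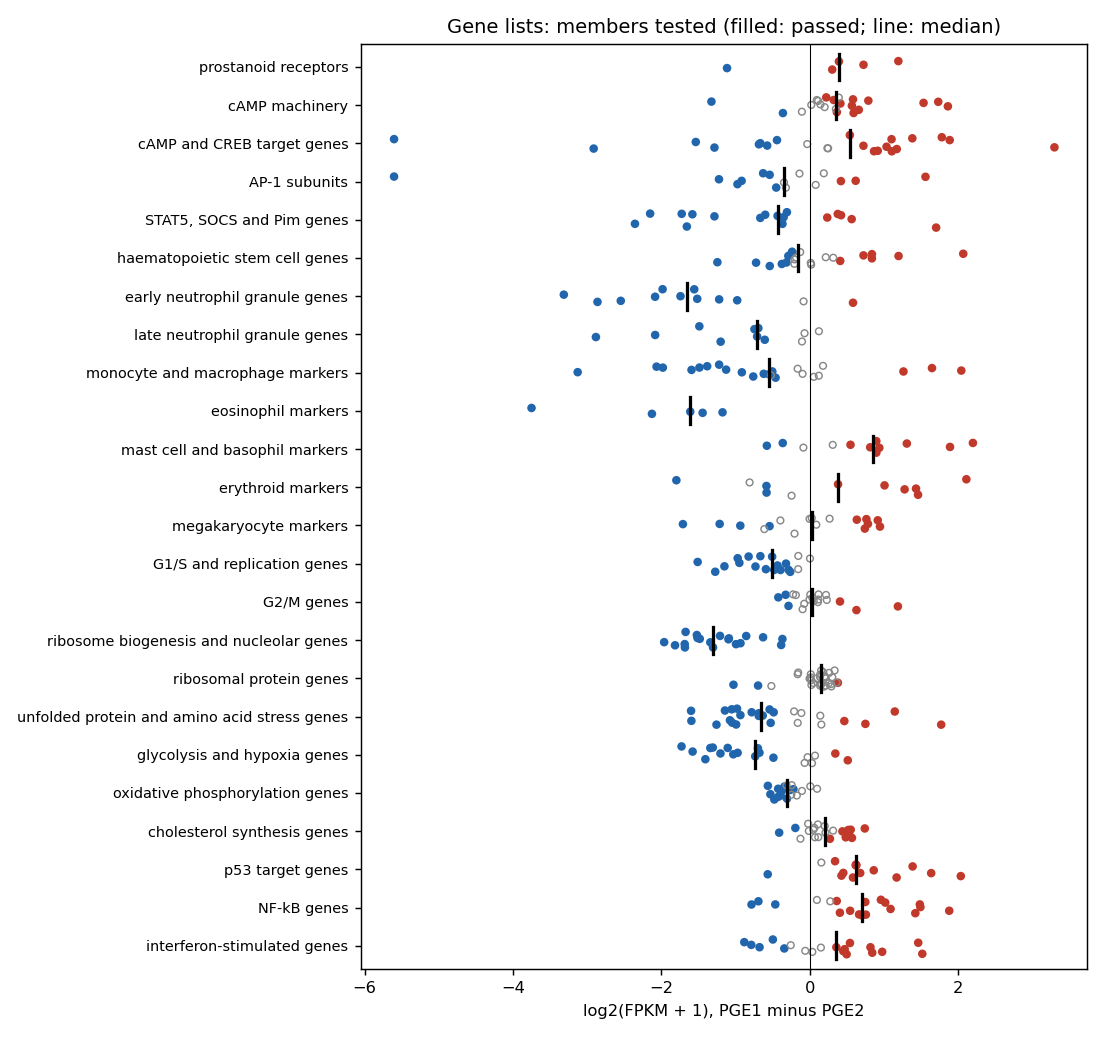
Log2(FPKM + 1) difference, PGE1 minus PGE2 (x axis), of every tested member of 24 gene lists (rows). Filled red and blue points passed the test as higher and lower after PGE1, open points did not, and the black line is the list's median, which is -1.65 for early neutrophil granule genes, -1.30 for ribosome biogenesis genes and 0.85 for mast cell and basophil markers.

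Some genes, picked out after their values were seen, lay away from vehicle after both compounds, with a narrow interval between the compounds. Slc16a3, a lactate transporter, read 125, 116 and 105 FPKM after PGE1 and 119 and 122 after PGE2 against 85.7, 78.3 and 78.1 in vehicle. Both groups lay above vehicle (adjusted p = 8.0e-04 for PGE1 and 0.0079 for PGE2), and the interval of the log2 difference between the compounds was -0.27 to 0.13. Plek, a protein kinase C substrate of platelets and leukocytes, read 39.7, 40.5 and 42.4 FPKM after PGE1 and 40.9 and 41 after PGE2 against 56.3, 60.1 and 59.9 in vehicle, lower in both (adjusted p = 1.3e-04 and 0.003) with an interval of -0.15 to 0.14. Pecam1, an adhesion molecule of platelets and endothelium, averaged 39.3 ± 0.957 against 37.3 ± 1.27 with 55.8 ± 4.65 in vehicle (adjusted p = 5.4e-04 and 0.0052), with an interval of -0.11 to 0.25. The intervals leave room for differences up to their bounds and do not show that the compounds act alike.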

How the data were processed

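Total RNA of the sorted cells was sequenced on Illumina libraries, per the labels' protocols. The authors deposited 1 table of FPKM values per library, made with CASAVA 1.8, TopHat and Cufflinks on the mouse build mm9, per the submitters' processing notes. Details of strand, read length and annotation were not given in the sources used here. Deposited gene symbols were used, since the reference at hand is of a later build. Whole reads were recovered from the FPKM steps in every gene with reads (within 0.0001 of a read), which gave the depths and a voom alternative. Samples were grouped by title.

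Values were tested as log2(FPKM + 1) in R 4.3.3 by limma 3.58.1 (functions lmFit and eBayes, trend on, two-sided) over the 8 treated libraries, for genes that averaged 1 FPKM or more in the 5 PGE1 and PGE2 libraries. Benjamini-Hochberg adjustment was over all genes tested and the threshold 0.05. This scale understates changes of low genes. Folds are ratios of group means. A call means an adjusted p under 0.05, and "higher" or "lower" is PGE1 relative to PGE2. The fit was also run on simulated data with the same spread in every library. These libraries differ in spread, so that run does not bear on it. Alternatives were other pseudocounts and filters, quantile normalization, median-of-ratios scaling, the 5 libraries alone, sample quality weights, a replicate block, voom and leaving out each library.

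The 42 gene lists (762 entries, 721 genes, 594 tested), the members and the rule for named genes were chosen with earlier results of these data known, and no list is independent support. Named were the 15 largest differences each way (adjusted p under 0.05, at least 5 FPKM in the higher group, no overlap), the prostanoid receptor and sex-linked genes and, from each list, up to 6 called members with the smallest p and up to 3 others with the highest level. Promoter sequences are RefSeq's (GRCm38.p6), matched by symbol. Untreated libraries were not used here, and some genes are not reported here. Python 3.11.15 with numpy 2.4.6, pandas 2.3.3 and matplotlib 3.10.9 did the remaining steps.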

Additional observations from a re-analysis of the deposited data

How the results depend on the processing

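The count of genes called between PGE1 and PGE2 (6031) ran from 4211 to 7112 over 18 alternatives, within 1.5 times of the reported count in each, and the share of calls that were higher from 46.8% under median-of-ratios scaling to 52.5% under quantile normalization (51.2% as reported). The count of genes with an interval within 1.5-fold (5574) became 11219 with no filter on low values, where 17959 genes were tested. It fell to 4557 with a pseudocount of 0.1 and to 4548 by voom. The count between PGE2 and vehicle (560) moved most: 3721 with sample quality weights, 229 with the replicate block, 1685 without PGE1 replicate 2 and DMSO replicate 1, an alternative chosen after seeing the data, and 95 to 1137 with a library left out. The cause was not tested. Without a PGE2 library the lone one is assumed to vary like the others.

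Of 214 tested genes named, 199 kept their call and direction under every alternative that tested them. The 7 that changed sign did not pass under any alternative. Their log2 differences were 0.055 for Itgam, 0.037 for Pkm, 0.070 for Plek, 0.096 for Ptpn6 and 0.0090 for Srgn after quantile normalization, -0.022 for Gnai2 and -0.026 for Ly6a after median-of-ratios scaling, -0.0092 for Gnai2 and -0.000463 for Ly6a with quality weights, 0.0036 for Plek by voom and -0.026 for Gnai2 and 0.0017 for Plek without PGE1 replicate 2 and DMSO replicate 1. With a library left out they ran -0.026 to 0.049 for Gnai2, -0.11 to 0.14 for Ly6a, -0.084 to 0.0078 for Pkm, -0.031 to 0.016 for Plek, -0.085 to 0.017 for Ptpn6. The other 8 genes gained or lost a call.

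The labels do not say whether replicate numbers pair the libraries. Deviations of PGE1 and PGE2 libraries with the same number correlated at 0.0022 and 0.048 over all genes, and those of PGE1 and vehicle at -0.14, -0.25 and 0.25. These values cannot settle the pairing, because deviations from the mean of so few libraries depend on each other. The replicate block gave 5300 calls between PGE1 and PGE2, with -0.0041 for Ly6a and 0.0021 for Pkm. Reads in genes were 11.31 M to 13.4 M per library, and the part of depth in what could pass was not tested. The median 95% interval reached 0.24 either side on the log2 scale.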

Other observations

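Single genes of folate and purine synthesis were picked out after their values were seen, and the other genes of these pathways were not counted. Slc19a1, the reduced folate carrier, read 7.2, 3.23 and 2.81 FPKM after PGE1 and 32.1 and 34 after PGE2 and 26.9, 22.8 and 21.2 in vehicle (log2 difference -2.74 ± 0.28, limma adjusted p = 8.0e-05). Shmt1, which moves a carbon unit from serine to folate in the cytosol, averaged 4.8 ± 1.89 against 25.6 ± 0.0505, and Mthfd1, which converts folate forms, 9.95 ± 2.03 against 29.1 ± 0.31 (mean ± SD, n = 3 and n = 2). Of the enzymes that build the purine ring, Gart read 18, 14.1 and 14.4 FPKM after PGE1 and 56.5 and 58.1 after PGE2 and 48.1, 47 and 45.7 in vehicle (log2 difference -1.83 ± 0.10, adjusted p = 6.1e-06) and Ppat averaged 6.68 ± 1.48 against 18.5 ± 0.701. In these 5 genes every PGE1 library lay below, and both PGE2 libraries above, the vehicle libraries.

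The same placing was seen, also after their values were seen, in the 3 chains of complement C1q, a product of macrophages. C1qc read 3.49, 3.31 and 2.84 FPKM after PGE1 and 22.2 and 22.3 after PGE2 and 16.9, 13 and 13.4 in vehicle (log2 difference -2.47 ± 0.12, adjusted p = 4.9e-06). C1qb averaged 5.09 ± 1.47 against 31.1 ± 2.22 and C1qa 1.07 ± 0.26 against 6.33 ± 0.181, and the haptoglobin gene Hp 14 ± 2.71 against 78.2 ± 1.22. Cxcl3, a neutrophil chemoattractant, was placed otherwise: it read 6.96, 5.69 and 6.68 FPKM after PGE1 and 40.3 and 35.1 after PGE2 and 57.1, 61.9 and 62.7 in vehicle, so that both compounds lay below vehicle and PGE1 lower still (log2 difference between them -2.38 ± 0.10, adjusted p = 2.6e-06).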
